A study of Mus musculus with 66 samples.

Results

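The transcripts of 10 cyclin genes were followed from growth to differentiation in C2C12 cells: Ccna2, Ccnb1, Ccnb2, Ccnd1, Ccnd2, Ccnd3, Ccne1, Ccne2, Ccng1 and Ccng2. They were chosen by name, and all 10 were among the 22489 genes of the deposited mRNA-Seq table. Values are FPKM, fragment numbers scaled to exon length and to the size of the library, so that levels of genes of unequal length can be set side by side. C2C12 is a mouse myoblast line that leaves the cell cycle and forms myotubes when serum is lowered. The table holds C2C12 cells without a transgene (WT) and 9 lines that carry a GFP-tagged histone H3 gene, namely H3.3, H3.1, H3.2 and H3t or one of the variants H3mm7, H3mm11, H3mm12, H3mm13 and H3mm16. In these lines the tag is at the N-terminus and a doxycycline-inducible (Tet-On) promoter drives the gene. The lines were made by stable transfection, selection in doxycycline and G418 and sorting of GFP-positive cells, and each variant is represented by a single line. Growing cells were kept in 20% fetal bovine serum and taken before confluence, and differentiated cells were taken 48 h after a change to 2% horse serum. Each line gave 1 growth and 1 differentiated library, 20 in all, and the 10 lines served as replicates of the states. The columns named H3mmT in the table were taken as the H3t line, the only labelled line without a column of its own name.

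Cyclins are the regulatory subunits of cyclin-dependent kinases. D-type cyclins bind Cdk4 and Cdk6 in G1 and start the phosphorylation of the retinoblastoma protein, E-type cyclins bind Cdk2 at entry into S phase, cyclin A2 acts in S and G2 phase with Cdk2 and Cdk1, and B-type cyclins drive mitosis with Cdk1. Cyclins G1 and G2 are atypical members. Cyclin G2 is known from arrested cells, and Ccng1 is a known target of p53. In muscle, cyclin D3 is known to stay on in differentiated myotubes, while cyclin D1 is known to oppose the action of MyoD.

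All 10 cyclins passed the filter for testing, a mean of at least 1 FPKM over the libraries, which 10954 genes passed. Muscle genes checked the state labels: Myog, the transcription factor of early differentiation, had 0.106 to 23.1 FPKM in growth and 329 to 1151 FPKM in differentiated cells, and 8 of 10 myoblast and muscle markers were higher after differentiation. The summed level of the 4 adipocyte, 4 osteoblast, 3 endothelial and 3 blood and macrophage markers lay between 0.0179 and 34.9 FPKM per list and library. Of the macrophage markers, Emr1 was listed at 0 in every library, whereas Cd68 had 0.799 to 2.00 FPKM in growth and 0.257 to 3.90 FPKM after differentiation. The adipocyte marker Pparg had 14.4 to 29.8 and 6.77 to 17.5 FPKM, and the osteoblast marker Runx2 8.03 to 14.5 and 2.70 to 5.17 FPKM. The WT libraries stood apart from the others: 388 genes were at least 8-fold below the lowest GFP-H3 library in both of them, Gapdh among them (0.361 and 0.263 FPKM against 783 FPKM or more). None of the cyclins was among these 388 genes. In bulk RNA, fewer cycling cells and less RNA per cell cannot be told apart.

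On mm9, with the GENCODE vM1 annotation, the genes lie apart from each other and each is protein coding. Ccna2 is at chr3:36463788-36471072 (minus strand), Ccnb1 at chr13:101548605-101556525 (minus), Ccnb2 at chr9:70255496-70269361 (minus) and Ccne1 at chr7:38883003-38892553 (minus). Ccne2 is at chr4:11118498-11131926 (plus), Ccnd1 at chr7:152115836-152125774 (minus), Ccnd2 at chr6:127075797-127101066 (minus) and Ccnd3 at chr17:47642000-47736632 (plus). Ccng1 is at chr11:40562054-40568813 (minus) and Ccng2 at chr5:93696283-93705257 (plus). Ccnd3 spans 94633 bases, the longest of the 10, and Ccng1 spans 6760 bases, the shortest.

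RefSeq promoters (GRCm38.p6, 300 bases around the annotated start) were at hand for 6 of the 10 genes, Ccnb1, Ccnb2, Ccnd3, Ccne1, Ccng1 and Ccng2. They were searched on both strands for CCAAT, the box bound by NF-Y, for the cell cycle homology region (CHR; TTTGAA or TTCGAA), for E2F words (TTTCGCGC, TTTGGCGC, TTCCCGCC) and for the E-boxes CAGCTG and CACGTG. The following windows are from the B-type cyclins, whose transcripts fell together with differentiation, and from Ccnd3, whose transcript rose. Capitals mark the match, and offsets count from the annotated start, with 0 for the first base of the transcript.
Ccnb1, CCAAT at offset -99, chr13:100786568-100786597, minus strand: gaacccgcggcgCCAATgggaagagagcga
Ccnb1, CCAAT at offset -67, chr13:100786536-100786565, minus strand: gccacgaactggCCAATgaggagcgagcgg
Ccnb2, CCAAT at offset -87, chr9:70421624-70421653, minus strand: aatacaagccagCCAATcaacgtgcagaaa
Ccnb2, CCAAT at offset -54, chr9:70421591-70421620, minus strand: cttccagtctagCCAATgggttgcgcgcgc
Ccnb2, CHR at offset 4, chr9:70421533-70421562, minus strand: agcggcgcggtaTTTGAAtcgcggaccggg
Ccnd3, CCAAT at offset -108, chr17:47593347-47593376, plus strand: gagcccagcggaCCAATggggctgcgggga
In the whole promoters, Ccnb1 held 2 CCAAT boxes and Ccnb2 held 3, with 2 CHR words. Ccng1, which was not called, held 4 CCAAT boxes, and one of the 2 Ccnd3 promoters held 1. No word was found in the promoters of Ccne1 and Ccng2. CCAAT was present in 37.4% of all 32851 RefSeq promoters of this length and the CHR in 19.2%, so a single match is common. E2F words were present in 2.96% of them, CAGCTG in 16.3% and CACGTG in 7.15%, and none of these was found in the promoters of the cyclins.

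In growing cells, cyclin transcripts ranged over more than an order of magnitude. The median over 10 lines was 136 FPKM for Ccnd1, 111 FPKM for Ccnb1, 97.4 FPKM for Ccna2, 87.8 FPKM for Ccng1, 67.4 FPKM for Ccnd3, 59.6 FPKM for Ccnb2, 33 FPKM for Ccne1, 11.8 FPKM for Ccne2, 5.74 FPKM for Ccnd2 and 4.11 FPKM for Ccng2. Neighbours in this order were compared within lines by exact two-sided sign-flip tests, with p adjusted over the 18 pairs of both states. The pairs were picked from the order in these same libraries, so p shows only how steady a difference in FPKM was across lines. An error in the FPKM of a gene that all lines share would not show in it. Ccnd1 was above Ccnb1 (adjusted p = 0.0483 in the exact test, higher in 9 of 10 lines), and Ccna2 was above Ccng1 (adjusted p = 0.0301, 8 of 10 lines). Ccnb2 was above Ccne1, Ccne1 above Ccne2 and Ccne2 above Ccnd2 in 10 of 10 lines each (adjusted p = 0.00703). Ccng1 and Ccnd3 (adjusted p = 0.185), Ccnd3 and Ccnb2 (0.0547), and Ccnd2 and Ccng2 (0.336) did not differ beyond the spread between lines in these exact tests. Ccnb1 was above Ccna2 in 9 of 10 lines, all but WT (37.6 against 133 FPKM), and this line decided the test: adjusted p was 0.965 with WT, and without it the difference was 0.24 ± 0.10 on the log2(FPKM + 1) scale (SD, n = 9, adjusted p = 0.0117 in the exact test). Without WT the difference between Ccnd1 and Ccnb1 was 0.24 and no longer passed (adjusted p = 0.0767, exact test, 8 of 9 lines).

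After differentiation, Ccnd3 and Ccng1 stood above the rest. The medians were 157 FPKM for Ccnd3 and 95.5 FPKM for Ccng1, and then 15.8 FPKM for Ccng2, 11.9 FPKM for Ccnd1, 10.7 FPKM for Ccnd2, 5.52 FPKM for Ccna2, 3.47 FPKM for Ccnb1, 3.44 FPKM for Ccnb2, 3.11 FPKM for Ccne1 and 0.692 FPKM for Ccne2. Ccnd3 was above Ccng1 in 9 of 10 lines (adjusted p = 0.0293, exact sign-flip test). Ccng1 was above Ccng2, and Ccne1 above Ccne2, in 10 of 10 lines each (adjusted p = 0.00703). The 6 neighbouring pairs from Ccng2 down to Ccne1 did not differ beyond the spread between lines, with adjusted p from 0.15 to 0.513 in the exact tests. Without WT, Ccnb1 was above Ccnb2 (adjusted p = 0.0402, exact test, 7 of 9 lines). The summed FPKM of the 10 cyclins fell from a median of 629 (range 564 to 725) to 314 (range 237 to 485) and was lower in 10 of 10 lines.

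**Figure D1:**
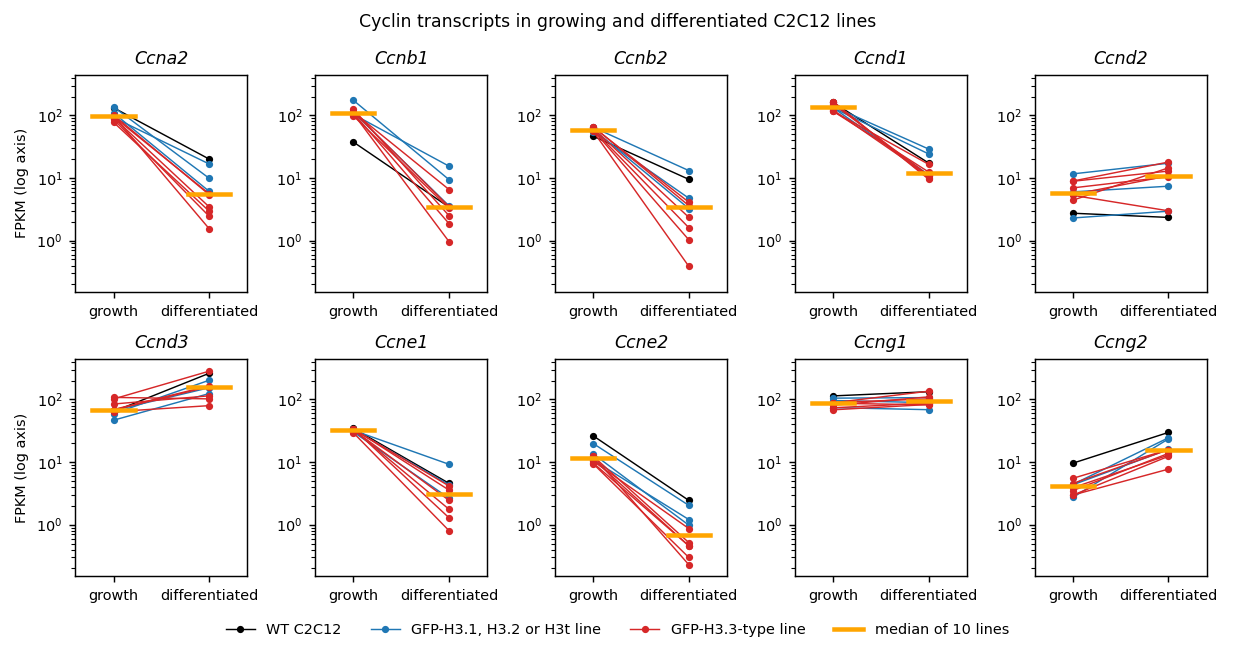
FPKM (log axis) of each cyclin in the growth and differentiated library of 10 lines. Each line of the plot joins the 2 libraries of a cell line, coloured by the kind of GFP-H3, and the orange bar is the median; in Ccna2, Ccnb1, Ccnb2, Ccnd1, Ccne1 and Ccne2 every differentiated library lies below every growth library.

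To find which cyclins changed, differentiated and growth libraries were compared with limma on log2(FPKM + 1), and a gene was called where p, adjusted over all genes by the Benjamini-Hochberg method, was below 0.05 and the difference was at least 1. A difference on this scale understates the change of a gene with few FPKM. By this rule 8 of the 10 cyclins were called, 6 lower and 2 higher in differentiated cells. Of all genes tested, 17.3% were called, 8.41% lower and 8.87% higher. The median difference was -3.00 over the 10 cyclins and 0.04 over all genes tested. For 6 cyclins, the 6 that were called lower, growth and differentiated libraries did not overlap, against 17.6% of all genes tested. Without WT, 7 cyclins were called, because Ccnd3 then missed the required size.

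The S-phase and mitotic cyclins fell the most. Ccna2, the cyclin of S and G2 phase, had 77.8 to 137 FPKM in growth (median 97.4) and 1.55 to 20.1 FPKM after differentiation (median 5.52). The highest differentiated levels were those of WT (20.1 FPKM) and the H3.1 line (16.8 FPKM), and the lowest was that of H3mm11. The fall was 18.3-fold by the median line, from 5.53-fold in H3.1 to 64-fold in H3mm11, and the difference was -3.92 ± 0.31 on the log2(FPKM + 1) scale (SE, adjusted p = 5.54e-10, limma).

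Ccnb1, the main mitotic partner of Cdk1, had 37.6 to 175 FPKM in growth (median 111) and 0.966 to 15.5 FPKM after differentiation (median 3.47). WT was low in growth at 37.6 FPKM, below the 98.5 FPKM of the next line, and H3.1 was the highest after differentiation. The difference was -4.38 ± 0.31 (adjusted p = 1.40e-10, limma), the largest of the 10 cyclins, and the fall was 30.7-fold by the median line, from 6.72-fold in H3.1 to 111-fold in H3mm13.

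Ccnb2, the second B-type cyclin of dividing cells, had 46.6 to 66.3 FPKM in growth (median 59.6) and 0.388 to 13.2 FPKM after differentiation (median 3.44). Growth libraries were close to each other, with a highest-to-lowest ratio of 1.42, whereas differentiated libraries spanned a ratio of 33.9, from H3mm11 to H3.1. The difference was -3.81 ± 0.30 (adjusted p = 8.62e-10, limma), and the fall was 18.4-fold by the median line. The ratio of Ccnb1 to Ccnb2 was 0.807 in WT and 1.59 to 3.16 in the other lines in growth, and it was lower after differentiation in 9 of 10 lines, with H3mm11 as the exception (2.25 and 6.46).

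Both E-type cyclins, the partners of Cdk2 at the start of S phase, fell in every line. Ccne1 had 29.4 to 34.5 FPKM in growth (median 33), the narrowest range of the 10 genes, and 0.803 to 9.22 FPKM after differentiation (median 3.11). H3.1 was the highest differentiated library, with WT next at 4.58 FPKM. The difference of Ccne1 was -3.07 ± 0.22 (adjusted p = 1.02e-10, limma), a 10.5-fold fall by the median line. Ccne2 had 9.40 to 26.3 FPKM in growth (median 11.8), with WT and H3t the highest, and 0.230 to 2.44 FPKM after differentiation (median 0.692). Its difference was -2.92 ± 0.20 (adjusted p = 8.43e-11, limma), and its fall by the median line was 17.4-fold.

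**Figure D2:**
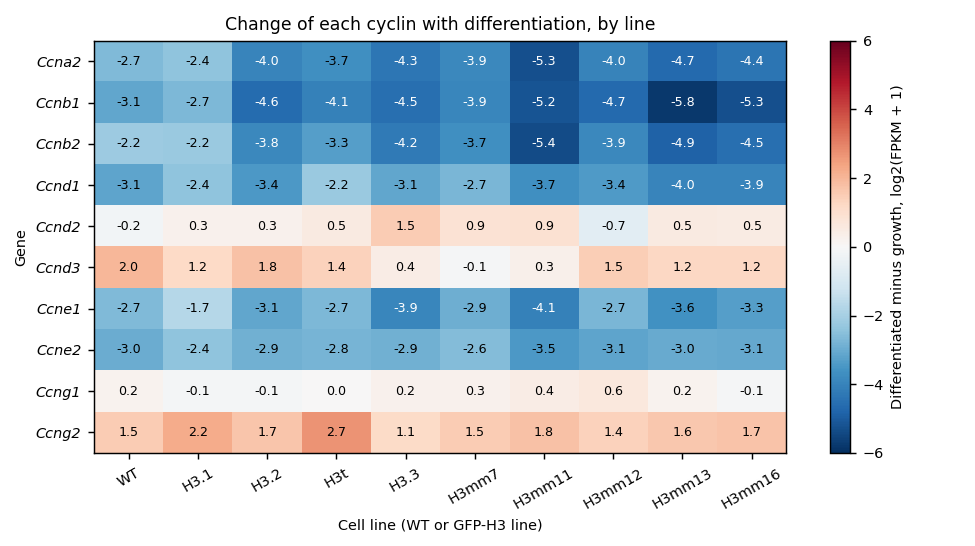
Differentiated minus growth library of each line on the log2(FPKM + 1) scale, with genes as rows and lines as columns. The 6 rows of Ccna2, Ccnb1, Ccnb2, Ccnd1, Ccne1 and Ccne2 are below 0 in 10 of 10 lines, and the row of Ccng2 is above 0 in 10 of 10.

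The D-type cyclins went different ways. Ccnd1, the D-type cyclin of growth-factor response, had 117 to 166 FPKM in growth (median 136) and 9.57 to 29.0 FPKM after differentiation (median 11.9), with H3t and H3.1 the highest differentiated libraries. It fell by 3.21 ± 0.17 on the log2 scale (adjusted p = 1.84e-12, limma), a 10.3-fold fall by the median line. Ccnd3 had 46.6 to 108 FPKM in growth (median 67.4) and 79.7 to 283 FPKM after differentiation (median 157). The groups overlapped: the H3mm7 line had 108 FPKM in growth and 102 FPKM after differentiation, and it was the only line of the 10 in which Ccnd3 was not higher after differentiation. The difference was 1.10 ± 0.21 (adjusted p = 0.000104, limma), and the rise was 2.37-fold by the median line and 4.09-fold in WT. Without WT the difference was 0.99 (adjusted p = 0.000345, limma), just under the size required for a call. The lowest differentiated levels of Ccnd3 were in H3mm11 (79.7 FPKM), H3mm7 (102 FPKM) and H3.3 (114 FPKM), and the highest in H3mm12 (283 FPKM) and WT (262 FPKM).

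Ccnd2, the least abundant D-type cyclin in growth, had 2.30 to 11.6 FPKM in growth (median 5.74) and 2.35 to 18 FPKM after differentiation (median 10.7). The 2 states overlapped, and lines differed more than states: WT and H3.1 stayed at or below 2.95 FPKM in both states, while H3t had 11.6 and 17.2 FPKM. The level was higher after differentiation in 8 of 10 lines, 3.29-fold in H3.3, and lower in WT and H3mm12. The difference of 0.46 ± 0.34 was not called (adjusted p = 0.256, limma). With the line as a replicate block the same difference had an adjusted p of 0.0304 in limma, and the exact sign-flip test gave p = 0.043 over 10 lines, but the size stayed below that required for a call.

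The make-up of D-type transcripts turned over between the states. In growth Ccnd1 made up 50.7 to 70.7% of the summed D-type FPKM (median 67.4%), Ccnd3 23.6 to 46.9% (median 29.1%) and Ccnd2 1.14 to 5.90% (median 2.63%). After differentiation Ccnd3 made up 72.9 to 95.4% (median 86.4%), Ccnd1 3.64 to 17.0% (median 7.49%) and Ccnd2 0.834 to 16.6% (median 6.35%). The share of Ccnd3 was higher and that of Ccnd1 lower after differentiation in 10 of 10 lines, H3mm7 included. The ratio of Ccnd3 to Ccnd1 was 0.335 to 0.925 in growth and 4.28 to 26.2 after differentiation, with H3t the lowest and H3mm12 the highest of the differentiated lines. The sum of the 3 changed less, from a median of 227 FPKM to 181 FPKM, and was lower after differentiation in 7 of 10 lines. Among all 10 cyclins, the D-type share was 27.2 to 38.3% in growth and 45.9 to 68.6% in differentiated libraries. Ccna2, Ccnb1 and Ccnb2 together made up 34.5 to 50.6% of growth and 1.46 to 13% of differentiated libraries.

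**Figure D3:**
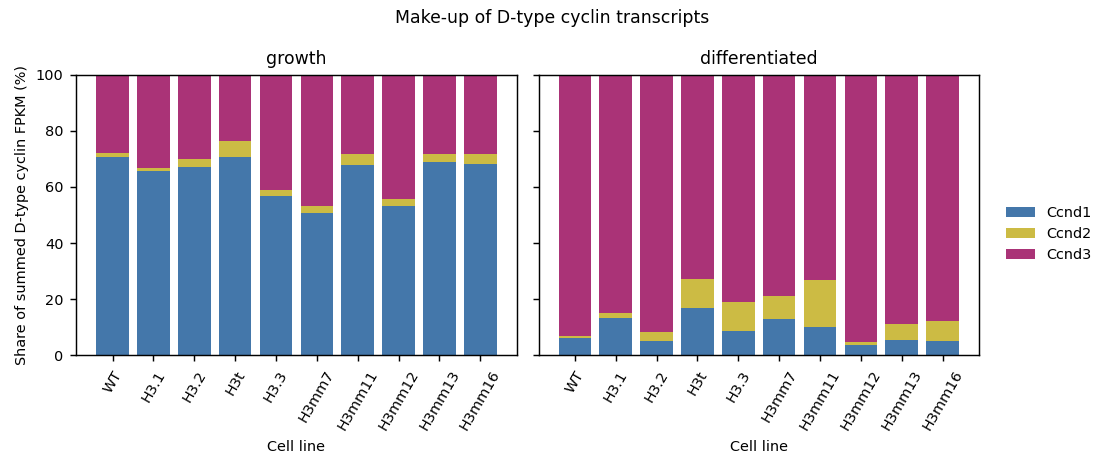
Stacked bars of the share of Ccnd1, Ccnd2 and Ccnd3 in their summed FPKM (%), for each line in growth (left) and after differentiation (right). Ccnd1 makes up at least 50.7% of every growth library, and Ccnd3 at least 72.9% of every differentiated library.

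Of the G-type cyclins, Ccng2 rose and Ccng1 was not called. Ccng2, linked to quiescence, had 2.73 to 9.60 FPKM in growth (median 4.11) and 7.72 to 29.8 FPKM after differentiation (median 15.8). The ranges met because WT in growth (9.60 FPKM) was above H3.3 after differentiation (7.72 FPKM), and within each of the 10 lines the level was higher after differentiation. The difference was 1.72 ± 0.21 (adjusted p = 3.34e-07, limma), a 3.58-fold rise by the median line, from 2.59-fold in H3.3 to 8.59-fold in H3t. Ccng1 had 68.4 to 114 FPKM in growth (median 87.8) and 68.7 to 136 FPKM after differentiation (median 95.5). It was higher after differentiation in 7 of 10 lines and lower in H3.1, H3.2 and H3mm16. Its difference of 0.17 ± 0.12 was not called (adjusted p = 0.250, limma). The ratio of Ccng1 to Ccng2 was 11.9 to 38.4 in growth and 3.64 to 11.4 after differentiation, lower in 10 of 10 lines.

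Among the 9 GFP-H3 lines, with WT left out, the relative spread of each cyclin was larger after differentiation than in growth. Without read numbers, the error of low values cannot be separated from this spread. The share of all genes with a larger spread after differentiation was not determined, so the cyclins are not set apart by it. The paper reports that whole expression profiles also differed more between lines after differentiation. Over the 9 GFP-H3 lines the coefficient of variation of Ccnb2 was 6.67% in growth and 99.5% after differentiation. The same values for Ccne1 were 4.95% and 74.9%. For Ccna2 it was 16.9% and 78.6%, for Ccnb1 19.3% and 88.1%, for Ccne2 26.1% and 72.9%, and for Ccnd1 14.0% and 46.9%. The change was smaller in Ccnd2 (42.1% and 51.3%), Ccnd3 (27.0% and 39.7%), Ccng1 (13.8% and 20.6%) and Ccng2 (23.5% and 33.4%). The summed FPKM of the 6 cyclins that fell was highest after differentiation in H3.1 (80.1), H3t (59.5) and WT (57.4) and lowest in H3mm13 (16.1) and H3mm11 (16.5), and in growth it lay between 399 and 559. H3.1 held the highest differentiated level of 3 of these 6 among the 10 lines, and H3mm11 the lowest of 4.

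Across the 9 differentiated GFP-H3 libraries these 6 cyclins moved together, with Pearson r of 0.68 to 0.97 over the 15 pairs (median 0.86). Across the 9 growth libraries r ran from -0.68 to 0.96 (median -0.11). In growth, r was 0.90 between Ccna2 and Ccnb1 and 0.96 between Ccna2 and Ccne2, all of which were highest in H3t among the GFP-H3 lines, but it was -0.40 between Ccna2 and Ccnb2. With WT included, the growth r was -0.18 between Ccna2 and Ccnb1 and 0.93 between Ccna2 and Ccne2. In differentiated libraries the r of Ccng2 with the 6 cyclins ran from 0.56 (Ccnb1) to 0.77 (Ccne1). Ccnd2 and Ccnd3 ran opposite to each other (r = -0.72), and Ccng1 was at -0.18 to 0.15 with every other cyclin. These correlations share libraries and rest on 9 lines each, and they are given as a description.

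**Figure D4:**
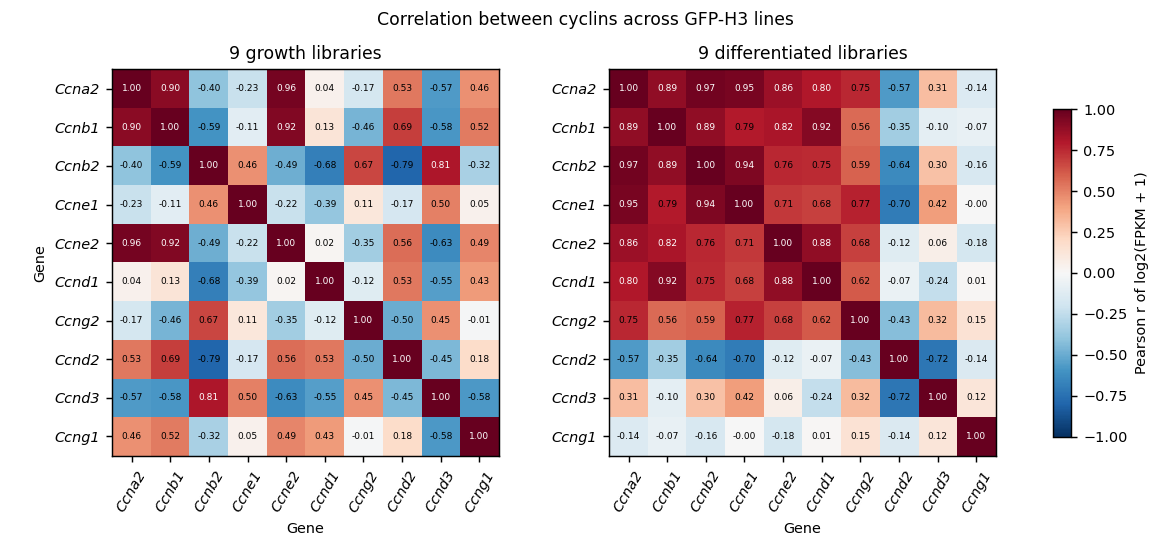
Pearson r of log2(FPKM + 1) between cyclins over the 9 GFP-H3 lines, in growth (left) and after differentiation (right). The block of Ccna2, Ccnb1, Ccnb2, Ccne1, Ccne2 and Ccnd1 has r from 0.68 upwards in differentiated cells and is mixed in sign in growth.

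The genes whose pattern was most like each cyclin were sought among all genes with a mean of at least 1 FPKM, by r over the 18 GFP-H3 libraries after centring each state. For Ccna2 they were Pbk (0.98; 0.96 in growth and 0.99 after differentiation), Top2a (0.98) and Spc25 (0.98). For Ccnb1 they were Bub1b (0.96), Kif11 (0.95) and Bub1 (0.95), and for Ccnb2 they were Fam64a (0.98), Pttg1 (0.97) and Birc5 (0.97). Tk1 (0.97), Nusap1 (0.95) and Prc1 (0.95) were most like Ccne1. Capza1 (0.95), Chek1 (0.95) and Slc25a24 (0.94) were most like Ccne2, with r of at least 0.93 in each state. For Ccnd1 the genes were Rbl1 (0.88), Fanci (0.86) and Wdhd1 (0.86). In growth alone r was below 0.20 for 7 of these genes: -0.05 for Pttg1 and 0.16 for Birc5 with Ccnb2, -0.14 for Tk1, 0.10 for Nusap1 and -0.39 for Prc1 with Ccne1, and -0.12 for Fanci and 0.13 for Wdhd1 with Ccnd1. For Ccnd2 they were Cd2ap (0.90), Acer3 (0.85) and Slc30a4 (0.83), for Ccnd3 Pccb (0.98), Iffo1 (0.97) and Tubb2a (0.95), for Ccng1 Jmjd4 (0.79), Ralgapa2 (0.77) and Tmem245 (0.77), and for Ccng2 Mxra7 (0.88), Ralb (0.88) and Ddah2 (0.86). With WT included, 10 of these 30 genes were again among the first 3, and none was for 3 of the cyclins. Each gene was picked for its high r among all genes searched, so these r are raised by the choice.

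To ask whether cyclin levels went with the kind of H3, the 6 lines with H3.3 or an H3mm variant (H3.3-type lines) were compared with the 3 lines carrying H3t, H3.1 or H3.2 (H3.1/H3.2-type lines). In growth no cyclin was called, with adjusted p from 0.541 (Ccne2) to 0.995 (Ccnb2) in limma. Of all genes tested 0.21% were called there. In differentiated cells Ccna2 was the only cyclin called, where 0.768% of all genes were. Ccna2 had 16.8 FPKM in H3.1, 9.92 FPKM in H3t and 6.13 FPKM in H3.2, and in the 6 H3.3-type lines it had 1.55 to 5.61 FPKM (median 3.21). The groups did not overlap, which also held for Ccne2 and Ccng2 among the cyclins and for 6.11% of all genes tested, and the difference was -1.36 ± 0.28 (adjusted p = 0.0256, limma). That fit takes the spread from growth and differentiated libraries together. From the 9 differentiated libraries alone the adjusted p was 0.280 in limma, and the call was lost without H3.1 (adjusted p = 0.123), H3t (0.108), H3.3 (0.0531), H3mm11 (0.0542) or H3mm13 (0.0529). The exact permutation test over the 9 lines gave p = 0.0119, the smallest it can give, and 0.119 after adjustment over 20 tests.

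The other cyclins that fell leaned the same way in differentiated cells without being called. Ccnb1 had 3.59 to 15.5 FPKM in the 3 lines and 0.966 to 6.56 FPKM in the 6 (difference -1.29 ± 0.36, adjusted p = 0.06, limma). Ccnb2 had 3.25 to 13.2 FPKM against 0.388 to 4.11 FPKM (-1.28 ± 0.36, adjusted p = 0.0623, limma). Ccnd1 had 11.3 to 29.0 FPKM against 9.57 to 16.6 FPKM (-0.75 ± 0.23, adjusted p = 0.0782, limma), and Ccne1 had 2.65 to 9.22 FPKM against 0.803 to 4.16 FPKM (-0.90 ± 0.30, adjusted p = 0.0968, limma). Ccne2 did not overlap between the groups (0.982 to 2.03 FPKM against 0.230 to 0.868 FPKM), and its difference of -0.70 ± 0.18 had an adjusted p of 0.0491 (limma) but not the size for a call. With a pseudocount of 0.1 FPKM in place of 1 FPKM the difference was -1.42 and was called (adjusted p = 0.0239, limma). Without the H3.2 line, Ccnb1 (-1.80, adjusted p = 0.00997, limma), Ccnb2 (-1.64), Ccnd1 (-1.14) and Ccne1 (-1.24) were called as well. Leaving out H3mm7 brought calls of Ccnb1 and Ccnb2, and leaving out H3mm12 a call of Ccnb2. Other alternatives made the differences smaller, down to -0.88 for Ccnb1, -0.78 for Ccnb2, -0.49 for Ccnd1 and -0.50 for Ccne1. From the differentiated libraries alone, none of Ccnb1, Ccnb2, Ccnd1, Ccne1 and Ccne2 was called. Their adjusted p then ran from 0.280 (Ccne2) to 0.399 (Ccne1) in limma. In the exact permutation test it ran from 0.119 (Ccne2) to 0.167 (Ccne1) after adjustment.

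Ccng2, which rose with differentiation, was also lower in the H3.3-type lines after it, with 7.72 to 15.8 FPKM against 16 to 24.5 FPKM (-0.67 ± 0.21, adjusted p = 0.0888, limma). From the differentiated libraries alone its adjusted p was 0.314 in limma. Ccnd2 (0.43 ± 0.49), Ccnd3 (-0.18 ± 0.30) and Ccng1 (0.18 ± 0.17) had adjusted p of 0.606 to 0.781 in limma. Muscle markers varied across the same libraries: the summed FPKM of the 10 myoblast and muscle markers was 3022 to 6140 in the 3 lines and 2922 to 13042 in the 6 after differentiation, and Myog was 329 to 929.7 FPKM against 347 to 1151 FPKM, so both ranges overlapped. In growth they did not overlap: the sum was 293 to 363 against 454 to 872, and Myog 0.106 to 3.21 FPKM against 7.35 to 23.1 FPKM. Myog was called in growth, where 0.21% of all genes were. The share of all genes that did not overlap in growth was not determined. The part of the muscle markers in the cyclin levels was not tested. The change with differentiation was also compared between the 2 groups of lines. The fall of Ccna2 was 3.34 in the 3 lines and 4.42 in the 6 on the log2 scale, and the difference between them was -1.08 ± 0.39 (adjusted p = 0.455, limma). No cyclin was called in this comparison (adjusted p from 0.455 to 0.947), nor was any gene (0% of all tested; 999 genes, or 9.14%, had an unadjusted p below 0.05).

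**Figure D5:**
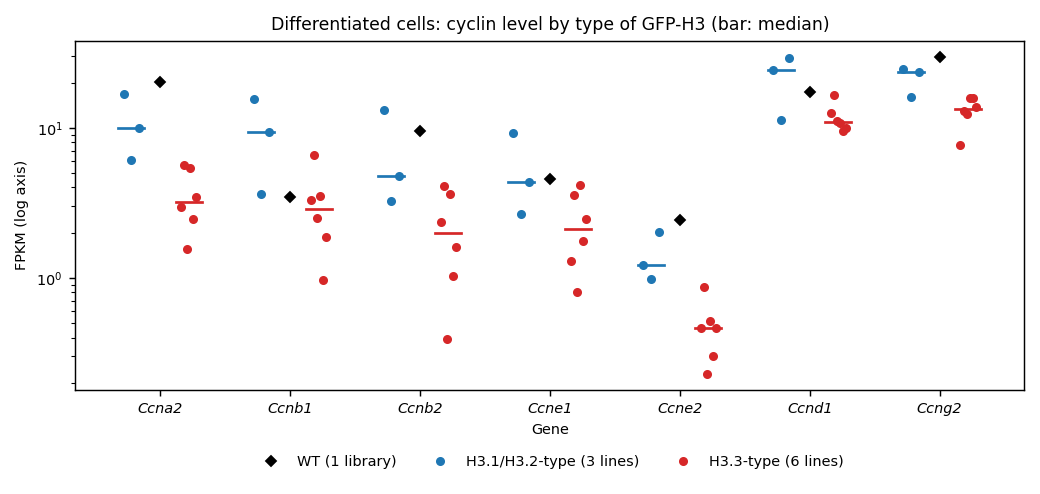
FPKM (log axis) of 7 cyclins in differentiated cells, with a point for each line, a bar for the median of each group of GFP-H3 lines and a diamond for WT. The H3.1/H3.2-type lines (blue, 3) lie above all H3.3-type lines (red, 6) in Ccna2, Ccne2 and Ccng2, and the groups overlap in the other 4 genes.

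The partners and regulators of the cyclins were examined from lists. Between states 17.3% of all genes tested were called, 8.41% lower and 8.87% higher, and the list counts stand beside these shares. Of 10 CDK and CDK activator genes, 6 were called lower and none higher (median difference -1.55). Cdk1, the mitotic kinase, went from 83.6 to 133 FPKM in growth to 1.67 to 18.3 FPKM after differentiation (-3.99 ± 0.29, adjusted p = 1.69e-10, limma), and the phosphatase Cdc25c (-3.26) and the Cdk subunit Cks2 (-3.13) fell as well. Cdk2, the partner of the E-type cyclins, had a median of 37.4 FPKM in growth and 32.9 FPKM after differentiation (adjusted p = 0.888). The partners of the D-type cyclins were lower in 10 of 10 lines without reaching the size for a call: Cdk4 had medians of 436 and 246 FPKM (-0.74, adjusted p = 0.000522, limma) and Cdk6 11.7 and 5.19 FPKM (-0.98, adjusted p = 3.67e-05, limma).

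Of the 10 CDK inhibitor and pocket protein genes, 6 passed the filter, of which 2 were called higher and 2 lower (median difference 0.56). The inhibitor Cdkn1a (p21) rose from a median of 76.5 to 635 FPKM (3.32 ± 0.21, adjusted p = 1.92e-11, limma), and Rb1, the retinoblastoma protein, from 8.92 to 41.5 FPKM (1.98 ± 0.17). Rbl1, the pocket protein p107, fell from 14.8 to 1.94 FPKM (-2.29), and the Cdk4 and Cdk6 inhibitor Cdkn2c from 23.7 to 10.2 FPKM (-1.24). Rbl2 was higher in 10 of 10 lines without the size for a call (0.63, adjusted p = 7.63e-05, limma). Cdkn1c was at or below 2.29 FPKM in every library and was not tested.

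Of 16 E2F and MuvB-B-Myb genes, 8 were called lower and 1 higher (median difference -0.92). Without the size for a call, Lin52 (0.43) was higher and E2f3 (-0.71) and E2f5 (-0.38) were lower in 10 of 10 lines. Mybl2 (-3.72), Foxm1 (-3.51) and E2f7 (-3.28) fell the most, and E2f2 rose from a median of 4.63 to 13.2 FPKM (1.27 ± 0.22, adjusted p = 4.17e-05, limma). Of 10 genes of cyclin degradation, 5 were called lower and none higher (median difference -1.28). The largest falls were those of the APC/C activator Cdc20 (-4.30), its ubiquitin-conjugating enzyme Ube2c (-4.04) and its inhibitor Fbxo5 (-3.74). Fbxo31 was higher after differentiation in 10 of 10 lines without the size for a call (0.69, adjusted p = 0.000578, limma). Skp2, the F-box protein that acts on p27, fell by 2.16 on the log2 scale. Without WT 6 of these 10 were called lower, with Ube2s added.

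Of 16 other cyclin genes, 12 passed the filter and 1 was called: Ccnf fell from a median of 31.1 to 1.47 FPKM (-3.48 ± 0.17, adjusted p = 8.12e-13, limma). Since 17.3% of all genes were called, 1 of 12 does not set this list apart. The 11 others, which include the transcriptional cyclins Ccnc, Ccnh, Ccnk and Ccnt1, were not called, and the median difference of the list was 0.08. Some of them moved the same way in 10 of 10 lines without the size for a call. Ccni (0.91, adjusted p = 8.87e-07), Ccny (0.79, 3.22e-06) and Ccnt2 (0.57, 1.93e-05) were higher after differentiation in limma. Ccnc (-0.41, adjusted p = 0.0263) and Ccnyl1 (-0.47, 0.00622) were lower in limma. Of a list of 18 genes, Trp53 itself (p53) and targets of p53, the group to which Ccng1 belongs, 17 passed the filter. Of these, 6 were called higher and none lower (median difference 0.34). Trp53 had a difference of -0.65 (adjusted p = 0.00293, limma), short of the size for a call, and was lower in 8 of 10 lines. Gadd45a (4.01 ± 0.34), Trp53inp1 (2.12 ± 0.16) and Btg2 (1.70 ± 0.19) rose the most, while Mdm2, with a difference of 0.14 (adjusted p = 0.321, limma), was not called, as Ccng1 was not. In the comparison of H3.3-type with H3.1/H3.2-type lines after differentiation, none of the genes of these 6 lists was called. Of all genes tested 0.768% were called there, so the lack of calls does not set these lists apart.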

How the data were processed

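mRNA-Seq of 10 C2C12 lines, each with 1 growth and 1 differentiated library, was analysed (20 of 66 samples). The authors mapped reads to mm9 with TopHat2 2.0.8, and the deposited FPKM were estimated with cuffdiff of Cufflinks 2.0.1 (stated by the methods for the GFP-H3 lines, and listed for WT in the submitters' processing notes). FPKM does not keep read numbers, the depth in reads is unknown, and values carry no counting interval. How cuffdiff shares reads between related genes can move low values. The authors' 3′-seq tables hold histone genes only and were not used here, and neither were ChIP-seq and input samples. No column of per-sample values was left out.

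The cyclins, the lists and the tests were chosen with earlier results of these data known. Genes with a mean of at least 1 FPKM were tested with limma 3.58.1 (R 4.3.3), with a variance trend and robust moderation, on log2(FPKM + 1), using Benjamini-Hochberg adjustment over all genes, for differentiated minus growth (20 libraries) and for the type of H3 in each state and their interaction (18 GFP-H3 libraries, lines with H3.1, H3.2 or H3t against the others). The spread was shared over both states. Replicates are separate lines, each with 1 library per state, and p-values measure the spread between libraries within a group. The reported fits held no term for the line, so both libraries of a line counted as independent. In the type comparison the spread comes from growth and differentiated libraries together, not from the lines of that state alone. On drawn values with 200 genes changed by 2 on the log2 scale, above the size of 1 required for a call, the first comparison recovered 98.5% with 2 false calls (10954 genes) and the second 96.5% with 8 (10931 genes). The values were drawn independently with 1 spread per gene, and only genes with a log2 mean above 3 were changed. In the data the spread could differ between states, as for Ccnb2 in H3.3-type lines (SD 0.0952 in growth, 0.719 after differentiation). These recoveries therefore do not describe the type comparison on such genes. Libraries of the same line pair the states: deviations from the state means correlated best with the line's own in 10 of 10 lines (r = 0.273 to 0.877), and the line was a block in an alternative. Named genes are the 10 cyclins, up to 3 called list genes with the largest difference in each direction, Cdk1, Cdk2, Cdk4, Cdk6, Cdkn1a, Cdkn1c and Rb1, and the 3 genes most like each cyclin. Myog, Emr1, Cd68, Pparg, Runx2, Gapdh, Skp2, Ube2s, Fbxo31, Rbl2, Lin52, E2f3, E2f5, Mdm2, Trp53, Ccnc, Ccnh, Ccni, Ccnk, Ccnt1, Ccnt2, Ccny and Ccnyl1 were chosen after their values were seen. Loci came from GENCODE vM1 (mm9), and promoters from RefSeq (GRCm38.p6). Tables were made in Python 3.11.15 (pandas 2.3.3, numpy 2.4.6, scipy 1.17.1) and plots with matplotlib 3.10.9. Alternatives covered the pseudocount, the filter, scaling between libraries, the limma settings, the line as a block and leaving out each line. The fit on 9 libraries of a state, the permutation test over 9 lines, list counts without WT and the order of cyclins without WT were added after the data were seen.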

Additional observations from a re-analysis of the deposited data

Results flagged for a closer look

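The gap of the highest or lowest library to its neighbour, relative to the range, was checked in the 20 groups of 10 libraries (each cyclin in each state), and 2 libraries stood out. Chance flags about 1 group in 20. Ccne1 was at 9.22 FPKM in the differentiated H3.1 library, against 4.58 FPKM in the next library, WT. Ccng2 was at 9.60 FPKM in the growing WT library, against 5.50 FPKM in the next, H3mm12. Without H3.1 the difference of Ccne1 between states and without WT that of Ccng2 stayed called.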

How the results depend on the processing

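Between states, each of the 10 cyclins was recomputed under 19 alternatives, 190 in all, and 189 kept their direction and their side of the call. The exception was Ccnd3 without WT (0.99), where 7 cyclins were called in place of 8. All genes called ranged from 1429 to 2348 (1893 in the reported fit). With the line as a replicate block 1910 genes were called between states, and no call of a cyclin changed. In the interaction, where no gene was called, the replicate block gave 3 genes, quantile normalization 5, and leaving out a line 0 to 2.

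Between H3.3-type and H3.1/H3.2-type lines, counts were unstable. In growth 23 genes were called, and 51 with a pseudocount of 0.1 FPKM, 14 without the filter, 14 with a mean of at least 5 FPKM, 59 from the growth libraries alone and 2 to 25 without a line. In differentiated cells 84 were called, and the same settings gave 134, 39, 47 and 1, and leaving out a line gave 3 (without H3.1) to 293 (without H3.2). The causes were not tested. A single-state fit holds fewer libraries and takes the spread from that state alone. For Ccna2 the SE was 0.278 in the shared fit, 0.132 in growth alone and 0.353 in differentiated cells alone. Signs of small growth differences turned when a line was left out: Ccnb1 ranged from -0.335 to 0.0356, Ccnb2 from -0.0325 to 0.080, Ccnd1 from -0.0144 to 0.0869, Ccnd2 from -0.336 to 0.633 and Ccng2 from -0.155 to 0.111 (-0.0164 with quantile normalization). In differentiated cells Ccnd2 ranged from -0.115 to 0.988.

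Each state of a line rests on 1 library, and without read numbers the error of low values, such as those of Ccne2 after differentiation, cannot be separated from the spread between lines.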

Other observations

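Untagged C2C12 cells lay outside the range of the 9 GFP-H3 lines for 6 of the 10 cyclins in growth and for 4 of 10 after differentiation. The share of all genes outside this range was not determined, so these counts do not set the cyclins apart. The WT libraries also had the lowest summed FPKM over all genes (409319 in growth and 465247 after differentiation). In growth Ccnb1 (37.6 FPKM against 98.5 to 175 FPKM) and Ccnb2 (46.6 FPKM against 55.2 to 66.3 FPKM) were below the lines. Ccne2 (26.3 FPKM against 9.40 to 19.8 FPKM), Ccng1 (114 FPKM against 68.4 to 105 FPKM), Ccng2 (9.60 FPKM against 2.73 to 5.50 FPKM) and, by less, Ccne1 (34.5 FPKM against 29.4 to 34 FPKM) were above them. After differentiation Ccna2 (20.1 FPKM against 1.55 to 16.8 FPKM), Ccne2 (2.44 FPKM against 0.230 to 2.03 FPKM) and Ccng2 (29.8 FPKM against 7.72 to 24.5 FPKM) were above the lines, and Ccnd2 (2.35 FPKM against 2.95 to 18 FPKM) was below. There is 1 WT library per state, so these differences were not tested.

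Ccng2 and Ccne2 were outside the range on the same side in both states. In the differentiated WT library Ccna2 was at 3.70 times and Ccne2 at 4.72 times the median of the lines, while Ccnb1, at 3.43 FPKM, was within their range of 0.966 to 15.5 FPKM.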
